A study of Mus musculus with 33 samples.

Results

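The family of miR-130 and miR-301 and that of miR-148 and miR-152 were followed through 7 mouse microRNAs, mmu-miR-130a, mmu-miR-130b, mmu-miR-301a, mmu-miR-301b, mmu-miR-148a, mmu-miR-148b and mmu-miR-152, written here without the prefix mmu- for mouse. They were taken by their array names without a star, 7 of the 611 mouse miRNAs and of the 650 miRNAs on the array. Lung RNA of 33 female C57BL/6 mice was read, 1 mouse per array, after a single delivery into the trachea. Exposed mice had received 0.162 mg of Printex 90, a nanosized carbon black powder, in vehicle, and control mice the vehicle alone, which both shared: MilliQ water with 0.9% NaCl and 10% v/v cell-free bronchoalveolar lavage fluid. Lungs were taken on day 1 (6 control and 6 exposed mice), day 3 (6 control and 4 exposed) and day 28 (6 control and 5 exposed). The age of the mice is not given in the labels. There was no untreated group among these arrays, so the controls carry the instillation itself.

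MicroRNAs are short RNAs that pair, mainly through bases 2 to 8 from their 5′ end (the seed), with messenger RNAs and lower their stability or translation. miR-130 and miR-301 share a seed and act, among other places, in vascular cells, where repression of PPARγ is a well known effect in pulmonary hypertension. miR-130a is also known for repressing the anti-angiogenic homeobox genes MEOX2 and HOXA5 in endothelium, and miR-301a for raising NF-κB activity by repressing its inhibitor NKRF. miR-148a, miR-148b and miR-152 share the other seed and are known repressors of DNA methyltransferases, DNMT1 among them, and of the calcium kinase CaMKIIα in dendritic cells. Whole lung mixes all of these cells, so a lower level in such tissue can come from fewer cells of a type or from less RNA per cell, which cannot be told apart here.

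The mature sequences are shown because the seed defines the families and because members of 1 family differ by few bases, which bears on what an array probe can separate. They are from RefSeq's mouse table of GRCm38.p6, which held the mature strand for 6 of the 7 names and the hairpin for 7 of 7. An array name without a star was read as the 3′ arm, as miRBase names these miRNAs now. Capitals mark the seed, bases 2 to 8.
miR-130a: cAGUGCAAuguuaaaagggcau
miR-130b: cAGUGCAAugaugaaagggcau
miR-301a: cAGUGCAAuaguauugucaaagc
miR-148a: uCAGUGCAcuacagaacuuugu
miR-148b: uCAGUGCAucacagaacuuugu
miR-152: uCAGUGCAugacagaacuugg

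The families are linked by 1 run of 7 bases, CAGUGCA, which opened miR-130a, miR-130b and miR-301a at base 1 and stood at base 2 in miR-148a, miR-148b and miR-152. The seeds, AGUGCAA in the former and CAGUGCA in the latter, therefore share the letters AGUGCA, moved by 1 base, and are not identical. Of 1679 mature mouse sequences in the table, 17 (1.01%) held this run anywhere, 7 of them at base 1 and 3 at base 2. No mature sequence other than the 3 members had CAGUGCA as its seed. AGUGCAA was the seed of 4 others, miR-130c, miR-6341, miR-6389 and miR-721, of which the array carried miR-721 alone. Over the whole shared length, seed included, miR-130a and miR-130b had the same base at 20 of 22 positions, and miR-130a and miR-301a at 12 of 22. In the other family the counts were 20 of 22 for miR-148a and miR-148b, 19 of 21 for miR-148b and miR-152, and 18 of 21 for miR-148a and miR-152. Such near copies can share a probe, and how far the array's probes cross-react was not tested.

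The 7 hairpins come from 6 places in the genome. miR-130b (mature strand chr16:17124071-17124092, minus strand) and miR-301b (hairpin chr16:17124400-17124496, minus strand) form a cluster with 257 bases between the hairpins, inside the span of 2610318N02Rik. miR-130a (chr2:84741116-84741137, minus strand) lay in no other gene's span. miR-301a (chr11:87113054-87113076, plus strand) lay within Ska2, a gene of chromosome segregation. miR-148b (chr15:103285185-103285206, plus strand) lay within Copz1 and miR-152 (chr11:96850439-96850459, plus strand) within Copz2, paralogous genes of a coatomer subunit. miR-148a (chr6:51269829-51269850, minus strand) lay within Gm38821. The table gives gene spans, and whether a hairpin is exonic or intronic was not read from it.

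Each array's 75th percentile over the 156 probes above background on all arrays was made equal before values were taken to log2, and before that scaling it ran from 187 to 1211 intensity units. Vehicle arrays averaged 472 ± 288 (SD, n = 6), 709 ± 310 and 956 ± 215 on days 1, 3 and 28, so the brightness of the arrays moved with the day of the controls. Exposed arrays averaged 654 ± 95.6, 628 ± 117 and 653 ± 285. Vehicle lungs of day 1 all lay at array position 1_1 of their slide and those of day 28 all at 1_2, and exposed lungs at 2_3 or 2_4, so position cannot be told apart from these groups. On slide 1 of the 9 slides, the vehicle array of day 1 was the highest of its group for 5 of 5 tested members and that of day 3 likewise for 5 of 5. The exposed arrays of that slide were the highest of their group for 3 of 5 members on day 1 and 4 of 5 on day 3. Values without that slide are therefore given for exposure on day 1, for miR-301a on day 3 and for vehicle day 28 against day 1. Of 27 marker miRNAs of 9 cell types, 22 were tested and 0 were called in the exposure comparisons or in vehicle day 28 against day 1. The 5 epithelial markers were above background on all arrays, and the 2 brain markers on none.

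Detection differed between the members. miR-130a, miR-301a and miR-148a were well above background on 33 of 33 arrays. miR-148b and miR-152 were so on 32, and both missed on the same array, number 27 of the vehicle day 1 group, the dimmest of all. miR-130b was above background on 5 arrays and miR-301b on 0. Testing needed 4 or more arrays above background in 1 or more groups, and 5 of the 7 members were so tested among 172 miRNAs. Levels are scaled log2 intensities, and because each probe has its own response, a member's level is set only against itself.

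In the family of miR-130 and miR-301, miR-130a was measured at 8.91, 9.18 and 9.80 (lowest, median and highest) in vehicle lungs of day 1 and at 8.88, 9.15 and 9.30 in exposed lungs. On day 3 the vehicle lungs had 9.11, 9.24 and 9.61 and the 4 exposed lungs 9.39, 9.13, 9.27 and 9.13. On day 28 the vehicle lungs had 8.96, 9.05 and 9.13 and the 5 exposed lungs 9.13, 8.91, 9.18, 9.01 and 9.19. Ranges of exposed and vehicle lungs overlapped on every day. From high to low, the group means were vehicle day 3, vehicle day 1, exposed day 3, exposed day 1, exposed day 28 and vehicle day 28. Group means ran from 9.05 ± 0.075 (SD, n = 6) in vehicle lungs of day 28 to 9.28 ± 0.18 (SD, n = 6) in those of day 3, and no gap between neighbouring group means (0.0096 to 0.11) reached the residual SD of 0.19.

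miR-301a, the family member lying within Ska2, had 6.65, 6.97 and 7.27 (lowest, median and highest) in vehicle lungs of day 1 and 6.47, 6.71 and 6.81 in exposed lungs. All 6 exposed lungs lay below the vehicle median, and 2 lay below every vehicle lung. Below the vehicle median also lay 6 exposed lungs for miR-148b, 5 for miR-148a, 4 for miR-130a and 3 for miR-152. On day 3 vehicle lungs had 6.61, 6.87 and 7.19 and the 4 exposed lungs 6.57, 6.83, 6.92 and 6.80. On day 28 vehicle lungs had 6.35, 6.56 and 6.78 and the 5 exposed lungs 6.57, 6.49, 6.40, 6.75 and 6.46. The order of group means was vehicle day 1, vehicle day 3, exposed day 3, exposed day 1, vehicle day 28 and exposed day 28, from 6.93 ± 0.25 (SD, n = 6) to 6.54 ± 0.13 (SD, n = 5). Neighbours in it differed by 0.034 to 0.11, below the residual SD of 0.18.

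The clustered pair miR-130b and miR-301b gave no measurable difference. miR-130b was above background on 0 of 6 vehicle lungs of day 1 and on 1 lung in each of the other 5 groups. The detected values were 3.45 in exposed day 1, 2.74 in vehicle day 3, 3.46 in exposed day 3, 2.77 in vehicle day 28 and 3.20 in exposed day 28. Against the lowest signal that counts as above background, no fold bound above 1 could be set for any comparison with vehicle day 1. miR-301b lay at the floor of 1 intensity unit, a log2 of 0, on all but 3 arrays, and its highest value, 1.71 in a vehicle lung of day 1, was not above background. The star strand of miR-130b and the seed mate miR-721 were also above background on 0 of 33 arrays.

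In the family of miR-148 and miR-152, miR-148a had 6.21, 6.70 and 7.29 (lowest, median and highest) in vehicle lungs of day 1 and 6.35, 6.62 and 6.76 in exposed lungs. On day 3 vehicle lungs had 6.46, 6.55 and 7.06 and the 4 exposed lungs 6.90, 6.58, 6.64 and 6.39. On day 28 vehicle lungs had 6.14, 6.22 and 6.42 and the 5 exposed lungs 6.46, 6.07, 6.91, 6.45 and 6.26. All 6 vehicle lungs of day 28 lay below all 6 of day 3, while the exposed lungs of day 28 spread over both ranges, 3 above and 1 below every vehicle lung of their day. The order of means was that of miR-301a except that exposed day 28 stood above vehicle day 28. Means ran from 6.73 ± 0.35 (SD, n = 6) in vehicle day 1 to 6.26 ± 0.12 (SD, n = 6) in vehicle day 28, with neighbouring gaps of 0.00073 to 0.17 under the residual SD of 0.24. Its star strand was above background on 0 of 33 arrays.

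miR-148b, which differs from miR-148a at 2 of 22 positions, had 4.44, 4.91 and 5.22 in vehicle lungs of day 1 and 4.73, 4.80 and 4.90 in exposed lungs. Day 3 gave 4.55, 4.90 and 5.08 in vehicle lungs and 5.13, 4.98, 4.83 and 4.70 in the 4 exposed lungs. Day 28 gave 4.66, 4.78 and 4.81 in vehicle lungs and 4.89, 4.71, 4.48, 4.73 and 4.82 in the 5 exposed lungs. From exposed day 3 down, its means passed through vehicle day 3, vehicle day 1, exposed day 1 and vehicle day 28 to exposed day 28. The 6 group means lay within 0.18 of each other, as small as the residual SD of 0.18. miR-152 had 5.08, 5.56 and 6.02 in vehicle lungs of day 1 and 5.28, 5.53 and 5.62 in exposed lungs. Day 3 gave 5.58, 5.65 and 5.74 in vehicle lungs and 5.73, 5.61, 5.62 and 5.57 in the 4 exposed lungs. Day 28 gave 5.48, 5.57 and 5.73 in vehicle lungs and 5.56, 5.44, 5.27, 5.26 and 5.63 in the 5 exposed lungs, of which 3 lay below every vehicle lung. The group means of miR-152 lay between 5.43 ± 0.17 (SD, n = 5) in exposed day 28 and 5.65 ± 0.053 (SD, n = 6) in vehicle day 3, with exposed day 3, vehicle day 1, vehicle day 28 and exposed day 1 in falling order between. For both miRNAs the widest group was vehicle day 1, with SDs of 0.31 and 0.37, and no neighbouring gap reached the residual SD.

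**Figure D1:**
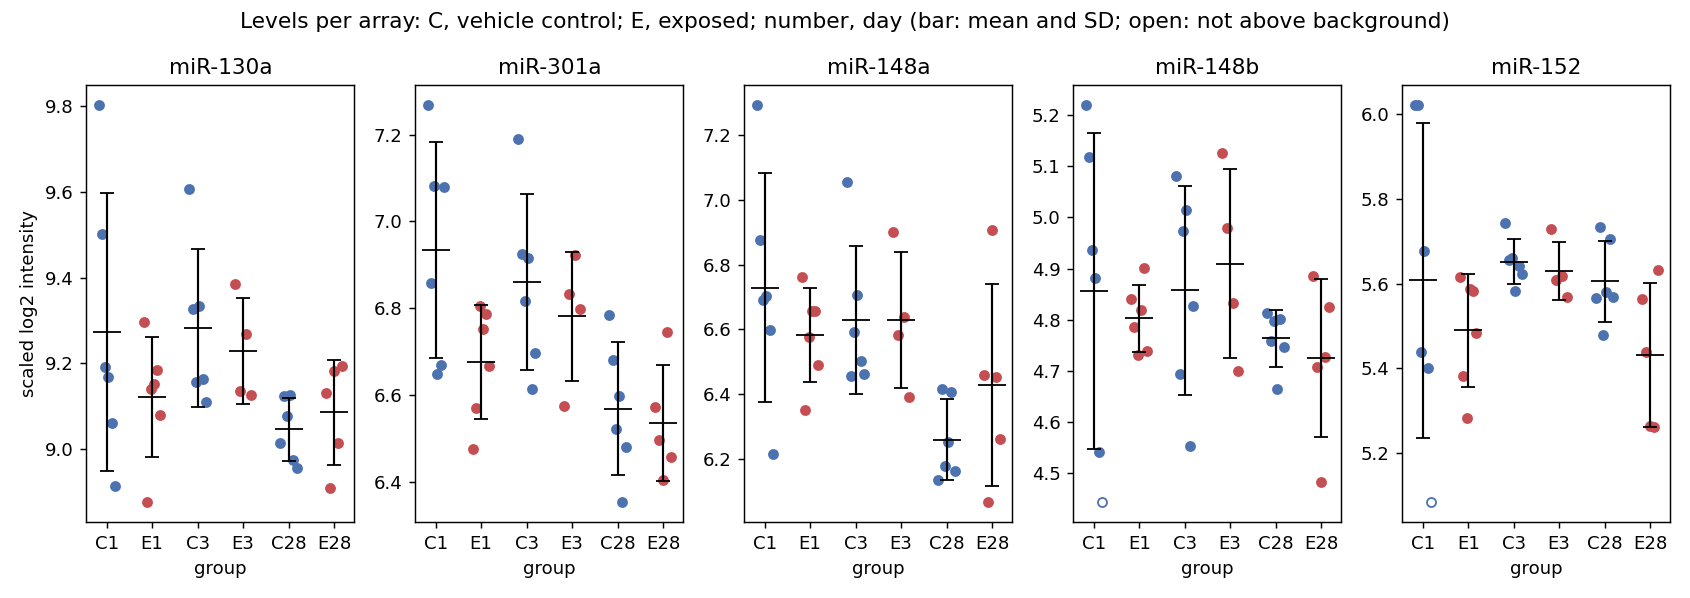
Scaled log2 intensity (vertical axis, log2) of the 5 tested members on each of 33 arrays, by group (C, vehicle control; E, exposed; the number is the day; horizontal bar and whiskers, mean and SD). Open points mark array 27, where miR-148b (4.44) and miR-152 (5.08) were not above background; vehicle day 1 is the widest group for all 5, and the means of vehicle day 28 (6.57 and 6.26) are low for miR-301a and miR-148a on this scaling.

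The first comparison asked how carbon black changed these miRNAs. On day 1 the 5 tested members all had lower means in exposed lungs on the scaling used, and all higher means without scaling (0.40 to 0.61), when the median of all miRNAs was 0.56. Log2 differences, exposed minus vehicle, were -0.26 for miR-301a, -0.15 for miR-130a, -0.15 for miR-148a, -0.12 for miR-152 and -0.054 for miR-148b. The limma test called 0 of 5, beside 0% of the 172 miRNAs (16 of 172 had an unadjusted p under 0.05, miR-301a among them). miR-301a had a standard error of 0.11, a 95% interval of -0.48 to -0.041 and an adjusted p of 0.457 (limma, Benjamini-Hochberg over 172 miRNAs). The members' median of -0.15 stood beside -0.097 for all 172 miRNAs, of which 112 were lower. Under 7 scalings, miR-301a was below the median of all miRNAs in 6, miR-130a and miR-152 in 6, miR-148a in 5 and miR-148b in 1. Over all settings other than those leaving out 1 array, the sign turned in 7 of 15 for miR-148b, 5 of 15 for miR-152, 4 of 16 for miR-148a, 2 of 16 for miR-130a and 1 of 16 for miR-301a. By their second probes, miR-148a (0.088) and miR-152 (0.13) were higher in exposed lungs, and miR-130a (-0.095) and miR-301a (-0.026) lower. No member had ranges that did not overlap, which 0.581% of miRNAs had. On the same slide, exposed lungs were below the vehicle lung for 4 of 6 pairs in each of the 5 members. Without slide 1 the difference of miR-301a was -0.15 (adjusted p = 0.563) and that of miR-148b turned to 0.011.

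On day 3 the differences were smaller, from -0.079 for miR-301a to 0.052 for miR-148b, with standard errors of 0.12 to 0.16. The limma test called 0 of 5 members and 0% of 172 miRNAs (2 with an unadjusted p under 0.05), with adjusted p = 0.996 for each member. Their median was -0.021, against -0.036 over all 172, and 0 of 5 members and 0% of miRNAs had ranges that did not overlap. miR-152 was lower than the vehicle lung of its slide in 4 of 4 pairs, by 0.016 to 0.055, a narrow set of differences within the residual SD of 0.19. Over the settings other than those leaving out 1 array, the difference of miR-301a ran from -0.15 to 0.057, the latter without slide 1. Only 4 exposed lungs carry this day.

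On day 28 miR-148a had the highest difference, 0.17 ± 0.15 (SE), and miR-152 the lowest, -0.17 ± 0.12 (SE), although their seeds are the same. Without scaling both were below 0 (-0.45 and -0.79), as was the median of all miRNAs (-0.65), and after normexp correction both were above 0 (0.31 and 0.21, median 0.28). Relative to that median, miR-148a was above it under 7 of 7 scalings and miR-152 below it under 7 of 7. The reported scaling, that over all probes and no scaling again gave 1 relative value. Neither passed, with adjusted p = 0.919 and 0.864 in limma, and 0 of 5 members and 0% of 172 miRNAs were called (13 with an unadjusted p under 0.05). Ranges did not overlap for 0 of 5 members and 1.74% of miRNAs. miR-130a (0.040), miR-301a (-0.034) and miR-148b (-0.038) lay between, and the members' median of -0.034 equalled that of all 172 to 2 digits. miR-152 was below the vehicle lung of its slide in 5 of 5 pairs, by 0.00071 to 0.32. Here and for the earlier days, the share of all 172 miRNAs with the same sign in every pair was not counted. Exposed and vehicle lungs of a slide also lay at different positions. With array brightness in the model, an alternative chosen after seeing the data, its difference was -0.060 (adjusted p = 0.968). The level of miR-152 had r = 0.39 with log2 array brightness over 33 arrays, and exposed arrays of day 28 were dimmer on average than vehicle arrays. The cause of the difference of miR-152 was not tested.

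The change of an exposure effect between days was tested as well. Effects on day 28 minus those on day 1 were 0.32 ± 0.20 (SE) for miR-148a, 0.22 ± 0.15 for miR-301a and 0.19 ± 0.16 for miR-130a, with limma adjusted p = 0.837, 0.918 and 0.925. For miR-148b and miR-152 they were 0.016 and -0.055. No member and 0% of 172 miRNAs passed for any of the 3 pairs of days, with adjusted p of 0.837 to 0.999 for the members. The numbers of miRNAs with an unadjusted p under 0.05 were 4, 13 and 3 for day 3 against 1, day 28 against 1 and day 28 against 3. For day 28 against day 1, 4 members were called after normexp correction, beside 97 of 172 miRNAs, all 97 higher. Without scaling 3 members were called, beside 119 of 172, all 119 lower. The median of all miRNAs was 0.027 as reported, 0.64 after normexp correction and -1.25 without scaling, so these settings called in opposite directions.

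**Figure D2:**
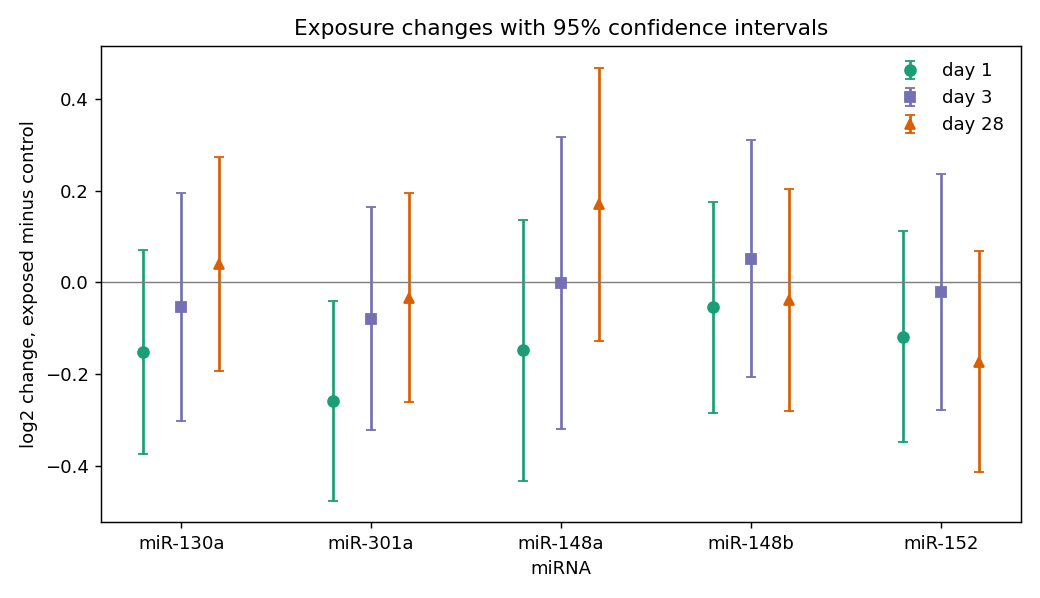
Log2 change of the 5 tested members, exposed minus vehicle lungs (vertical axis), on day 1, 3 and 28, with 95% confidence intervals from limma. All intervals cross 0 except that of miR-301a on day 1 (-0.48 to -0.041), whose adjusted p was 0.457.

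The second comparison asked how the vehicle lungs changed over the days after instillation. On the scaling used, all 5 tested members had lower means on day 28 than on day 1, as had 126 of 172 miRNAs. An unadjusted p under 0.05 in limma was reached by 3 of the 5 members and by 42 of 172 miRNAs. After adjustment 2 members, 1 of each family, were called lower. miR-301a fell by 0.37 on the log2 scale (SE 0.11, 95% interval -0.58 to -0.15, 1.29-fold lower) and miR-148a fell by 0.47 (SE 0.14, -0.75 to -0.19, 1.39-fold lower), both with an adjusted p of 0.0367 in limma. Of all 172 miRNAs 12 (6.98%) were called, 11 of them lower (6.4%) and 1 higher, so both members were called in the direction that most calls took. For miR-130a the difference was -0.23 (adjusted p = 0.189), for miR-148b -0.093 and for miR-152 -0.0022. All 6 vehicle lungs of day 28 lay below the day 1 median for miR-301a and miR-148a, and also for miR-130a and miR-148b, which were not called. The share of all 172 miRNAs with this was not counted. For miR-301a and miR-148a the lowest day 1 lungs (6.65 and 6.21) lay among those of day 28. Ranges overlapped for 5 of 5 members, while 2.33% of miRNAs had ranges that did not, 1.74% with day 28 lower. An F test over the 3 vehicle days called 0 of 5 members against 1.16% of miRNAs, with adjusted p = 0.0770 for miR-301a and 0.0788 for miR-148a.

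Vehicle lungs of day 3 were nearer to those of day 1. Vehicle day 3 minus day 1 was -0.074 for miR-301a and -0.10 for miR-148a, with 0 of 5 members and 0% of 172 miRNAs called (9 with an unadjusted p under 0.05). Vehicle day 28 minus day 3, chosen after seeing the data, was -0.29 for miR-301a, -0.37 for miR-148a and -0.24 for miR-130a, with adjusted p = 0.187, 0.187 and 0.357 in limma. No member was called there, against 0.581% of miRNAs (3 of 5 members and 18 of 172 miRNAs had an unadjusted p under 0.05). miR-148a alone among the members had ranges that did not overlap, which 4.65% of miRNAs had. In exposed lungs, day 28 minus day 1 was -0.14 for miR-301a and -0.15 for miR-148a, with adjusted p = 0.575 and 0.604, and 0 of 5 members and 0% of 172 miRNAs called (27 with an unadjusted p under 0.05).

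These 2 calls changed with the slide as a block, with single arrays and with the scaling. With the slide as a fixed block miR-148a was no longer called (-0.36, adjusted p = 0.0655 in limma), while miR-301a was (-0.38, adjusted p = 0.0463). With the slide as a random block both were called (adjusted p = 0.0225 and 0.0189). Without slide 1, which takes out the highest vehicle lung of day 1, miR-301a was at -0.30 (adjusted p = 0.0696) and miR-148a at -0.36 (adjusted p = 0.0738). Leaving out 1 array at a time, miR-301a stayed past the threshold in 26 of 33 runs. Only runs without 1 of the 6 day 1 or 6 day 28 vehicle arrays could move the difference itself. Every miss of either miRNA came from those runs, so the counts out of 33 overstate how firm the calls were. miR-301a missed without vehicle day 1 arrays 1, 13 and 27 (-0.30, -0.34 and -0.34) and day 28 arrays 18, 22, 28 and 32 (-0.36, -0.37, -0.32 and -0.35). miR-148a stayed past it in 25 of 33 runs. It missed without day 1 arrays 1, 5 and 13 (-0.36, -0.44 and -0.48) and day 28 arrays 6, 18, 22, 28 and 32 (-0.45, -0.45, -0.47, -0.50 and -0.45). No run turned either sign. On the 3 slides that hold vehicle lungs of both days, miR-301a was lower on day 28 in 3 of 3 (-0.73 to -0.076) and miR-148a in 2 of 3 (-0.74 to 0.19). Vehicle day 3 was the only group at both positions, with 3 lungs at each. There, lungs at 1_2 minus lungs at 1_1 gave 0.027 for miR-301a and 0.17 for miR-148a. Both values include the array of slide 1, the highest at 1_2 (7.19 and 7.06), which lay above the highest at 1_1 (6.93 and 6.71).

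Brightness moved with miR-301a more than with miR-148a. Over 33 arrays its level had r = -0.58 with log2 array brightness (-0.69 in the 18 vehicle arrays), against -0.26 for miR-148a (-0.34 in vehicle arrays). The other members had r = -0.12 for miR-130a, 0.24 for miR-148b and 0.39 for miR-152. Points of 1 slide and of 1 group share their scan and treatment, so these values are descriptions. With brightness as a term in the model, added after seeing the data, the vehicle day 28 minus day 1 difference was -0.17 for miR-301a (adjusted p = 0.576) and -0.50 for miR-148a (adjusted p = 0.273). Because brightness and vehicle day moved together, their parts in the differences of miR-301a and of miR-148a cannot be told apart.

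**Figure D3:**
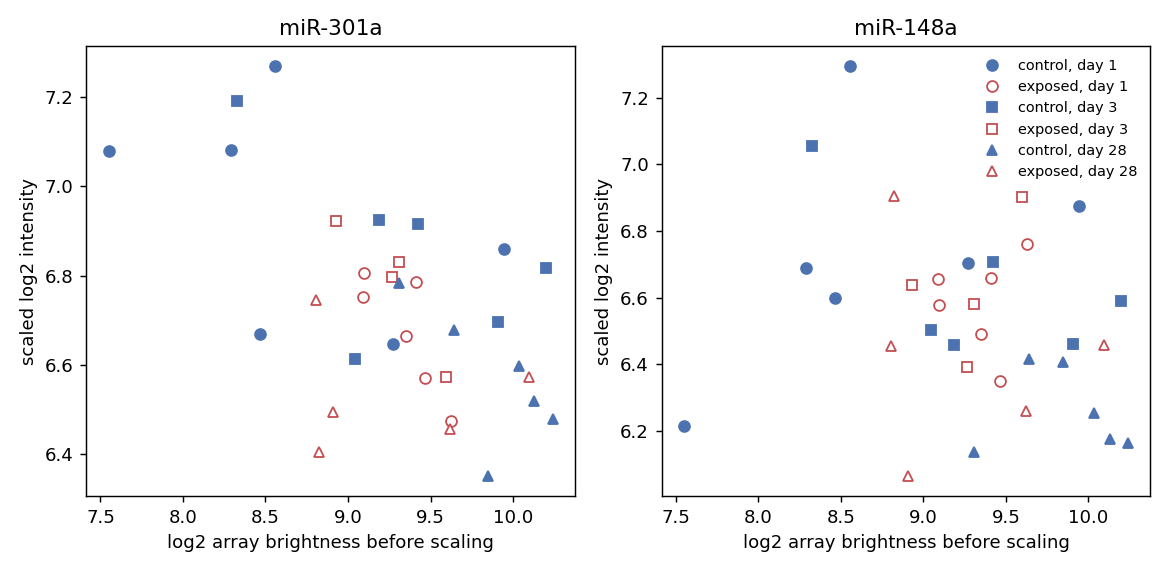
Scaled log2 intensity (vertical axis) of miR-301a and miR-148a against log2 array brightness before scaling (horizontal axis), 1 point per array, vehicle lungs filled and exposed lungs open. miR-301a is lower on brighter arrays (r = -0.58), while miR-148a follows brightness less (r = -0.26); vehicle lungs of day 28 (filled triangles) sit at the bright end.

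The second probe on the array gave a further reading of 4 members. For miR-148a it was above background on 33 arrays and correlated with the one used (r = 0.75), with a vehicle day 28 minus day 1 difference of -0.30 (adjusted p = 0.125 in limma). For miR-301a it was above background on 29 arrays, correlated with the one used at r = 0.13, and gave 0.058. miR-130a gave -0.16 by its second probe (33 arrays, r = 0.84). For miR-152 the second probe gave 0.34 (30 arrays, r = 0.51), against -0.0022 for the probe used. The other probe of miR-148b was above background on 0 arrays. The lower level of miR-148a on day 28 was thus in the same direction on both of its probes, and that of miR-301a was not. Both probes of a miRNA share the arrays and the scaling, on which 126 of 172 miRNAs were lower, so they are not independent readings. The second probe of miR-301a was also dimmer, with a mean log2 level of 4.42 against 6.73.

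The scaling set the level of all miRNAs at once, so the changes were also read against the median of all 172. That median for vehicle day 28 minus day 1 was -0.17 as reported and ran to -0.64 after normexp correction and 1.01 without scaling. Called miRNAs were 1 higher and 11 lower as reported, 2 higher and 125 lower after normexp correction, and 142 higher and 0 lower without scaling. They were 5 higher and 0 lower with the 75th percentile over all probes, and 3 higher and 2 lower in the table deposited by the authors. The reported, all-probe and unscaled values differ by 1 factor per array and so give 1 relative value. Relative to the median, miR-148a was lower under 7 of 7 scalings (-0.48 to -0.067) and miR-301a under 6 of 7 (-0.37 to 0.069). miR-152 was above the median under 7 of 7 (0.027 to 0.21). miR-130a was below it under 6 of 7 and miR-148b under 1 of 7.

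**Figure D4:**
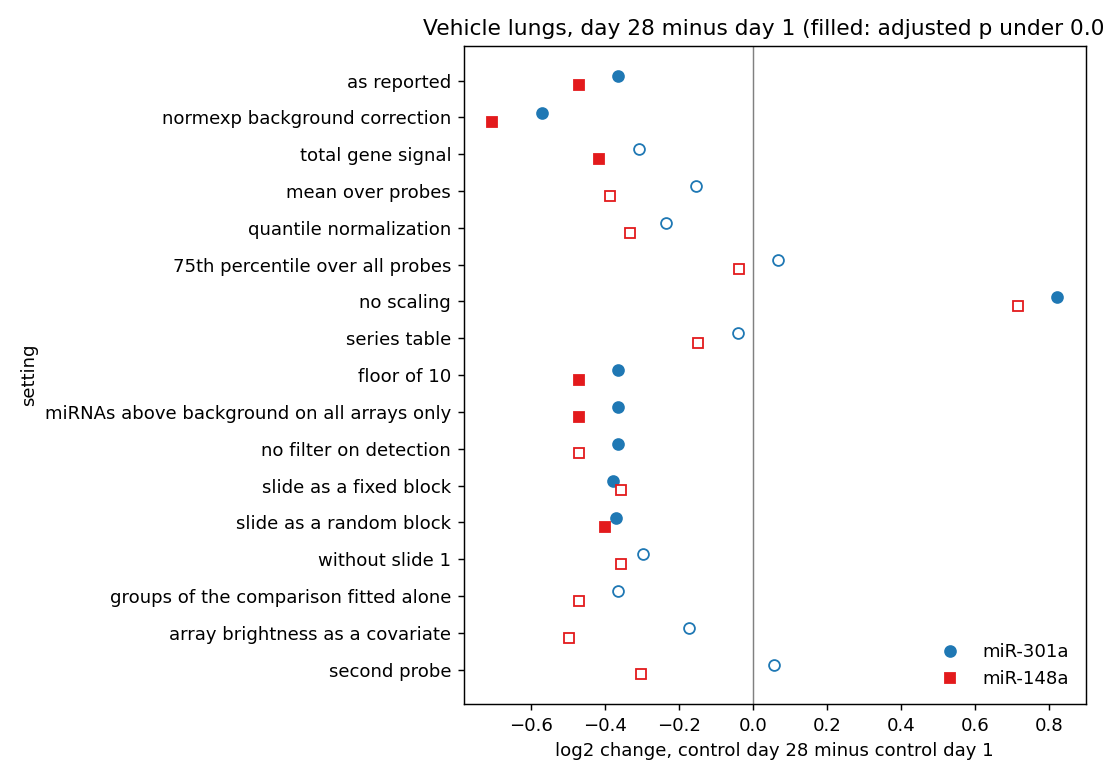
Log2 change of miR-301a and miR-148a in vehicle lungs, day 28 minus day 1 (horizontal axis), as reported (top) and under each other setting (vertical axis). Filled points had a limma adjusted p under 0.05; without scaling both lie above 0 (0.82 and 0.72), and miR-301a is above 0 also by its second probe (0.058) and with the 75th percentile over all probes (0.068).

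Likeness of levels across the arrays was also described for the members. Over 33 arrays the levels of miR-130a and miR-148a, of different families, had r = 0.84, and r = 0.83 after taking out group means. miR-130a and miR-301a, of the same seed, had r = 0.56 (0.37 within groups). miR-148b and miR-152 had r = 0.73, miR-148a and miR-148b 0.58 and miR-148a and miR-152 0.46. miR-301a and miR-152 had the lowest value, 0.18 (-0.0046 within groups). The median over all pairs of the 94 miRNAs above background on all arrays was 0.12, with quartiles of -0.19 and 0.48. All of these share the same arrays and the same scaling factor per array.

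The miRNAs most like each member over the 33 arrays were sought among those 94. For miR-130a they were miR-99a (r = 0.91), let-7i (0.89) and miR-106b (0.88). For miR-148a they were miR-130a (0.84), miR-106b (0.81) and miR-652 (0.81). For miR-301a they were miR-28 (0.79), miR-322 (0.76) and miR-23b (0.72). Of these neighbours, miR-28 was itself called in vehicle day 28 against day 1 (-0.42, adjusted p = 0.0367 in limma), and the others there had adjusted p of 0.0938 to 0.261.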

How the data were processed

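Cy3-labelled lung RNA, enriched for small RNA, was hybridised to 1-colour Agilent miRNA slides, per the labels' protocols. Scanner files deposited by the authors give spot intensity on a linear scale from Feature Extraction 10.7.3.1, background-subtracted in the processed signal, per the file headers. The table deposited by the authors holds log2 values, read so because its columns followed the log2 median signal (r = 0.991 to 1.00); its column medians were 5.41 to 5.43, its centring and scaling stayed unknown, and it served as an alternative.

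Of 13715 spots, the 13000 that were not controls were used without outlier-flagged ones (2.30%), and 0 were saturated. Spots of 1857 probes were averaged, scaled to the 75th percentile over 156 probes, floored at 1 and log2 transformed. The brightest probe stood for a miRNA. A miRNA was above background on an array when most unflagged spots of 1 of its probes were. Precision is limited by the number of arrays.

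One limma fit (3.58.1, with trend; R 4.3.3, data.table version 1.17.8) of 6 group means covered all 33 arrays and 172 miRNAs. Tests were two-sided with Benjamini-Hochberg adjustment and a threshold of 0.05. The fit was also run on simulated data, whose planted changes were larger than those of the members. That run had no slide, brightness or scaling differences, so it cannot show how far the calls here hold. The series design names individual mice, so each array stood for 1 animal. No replicate number occurs in more than 1 group. Named beside the 7 members were their star strands, seed mates and the 3 miRNAs most correlated with each member above background on all arrays. Members and lists were chosen with earlier results of these data known. Alternatives were normexp (offset 50, on the median signal, as the files used hold no mean signal), total gene signal, the mean over probes, quantile normalization, other or no scaling, a floor of 10, other filters, slide as a block, slide 1 or 1 array left out, and each comparison fitted alone. Brightness as a term, second probes and 3 further contrasts (exposed day 3 and day 28 minus day 1, vehicle day 28 minus day 3) were added after seeing the data.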

Additional observations from a re-analysis of the deposited data

How the results depend on the processing

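No tested member was called for exposure on any day under any setting or with any array left out. The change of the exposure effect from day 1 to day 28 had 0 called members as reported, 4 after normexp correction (97 of 172 miRNAs, all higher) and 3 without scaling (119 of 172, all lower). For vehicle lungs of day 28 against day 1, the 2 called members became 5 after normexp correction, beside 127 of 172 miRNAs, 125 of them lower. Without scaling 4 were called, beside 142 of 172, all 142 higher and so opposite to the reported calls. They became 1 with the total gene signal (2 of 172 miRNAs) and with the table deposited by the authors (there miR-130a, 5 of 172 miRNAs). Also 1 was called without the detection filter (miR-301a) and with slide as a fixed block, where miR-148a lost its call. They became 0 with the mean over probes, quantile normalization, the 75th percentile over all probes, without slide 1, with the 2 groups fitted alone, with brightness as a term and with second probes. With 1 array left out at a time they were 0 to 2. Without scaling this difference turned upward for miR-130a (0.96), miR-301a (0.82), miR-148a (0.72), miR-148b (1.09) and miR-152 (1.19). For the called miR-301a it turned also with the 75th percentile over all probes (0.068) and with its second probe (0.058). Over all settings other than those leaving out 1 array, the sign turned in 10 of 15 for miR-152 and 6 of 15 for miR-148b. It turned in 3 of 16 for miR-301a, 2 of 16 for miR-130a and 1 of 16 for miR-148a. Calls over all 172 miRNAs were 12 as reported and ran from 0 (quantile normalization, groups fitted alone, brightness as a term) to 142 (no scaling), and from 0 to 22 with 1 array left out. The cause of these shifts was not tested. Over the settings, 93 of 498 member differences turned sign, and 30 of 990 with 1 array left out. Many of these could not turn, so the shares do not measure stability. Leaving out an array of a group outside the comparison keeps the difference as it was. Another detection filter or fitting the groups alone also keeps it. Differences near the residual SD of 0.18 to 0.24 could not be resolved with 4 to 6 lungs a group, and miR-130b and miR-301b were too dim to compare.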
